A study of Mus musculus with 12 samples.

Results

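The comparison described here sets oocytes that lack Ring1 against oocytes that have it, with Rnf2 present in both. It rests on 6 of the 12 arrays of the series, 3 of the Ring1 mutant and 3 of the control, chosen by genotype label and not by any measured value. Ring1 and Rnf2 (also called Ring1A and Ring1B) are the alternative catalytic subunits of Polycomb repressive complex 1 (PRC1), which places ubiquitin on histone H2A. PRC1 is best known for keeping developmental genes such as the Hox genes silent, and in most cells studied Rnf2 is the more active of the pair. Mouse oocytes grow while arrested in the first meiotic division, store much of the RNA and protein that the early embryo uses, and become nearly silent in transcription once fully grown.

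The Ring1 mutant was Ring1-/- with Rnf2 F/F, a homozygous null genotype written without a Cre, and the control was Ring1+/+ with the same floxed Rnf2 F/F. A pair of other genotypes served as a second background in which the same null alleles could be read. The double mutant was Ring1-/- Rnf2 F/F Zp3-cre and the Rnf2 mutant was Ring1+/+ Rnf2 F/F Zp3-cre, in which Cre is driven by a promoter active in growing oocytes. All 4 genotypes were of mixed 129/Sv and C57BL/6J origin, and the labels do not say which parts of the genome came from which strain in which pool. An effect of the Ring1 alleles and an effect of strain of origin therefore cannot be told apart where the groups differ in the latter.

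Each array held RNA from 50 fully grown oocytes with an intact germinal vesicle, pooled from several females aged 5 to 10 weeks, 46 h after 5 U of PMSG and collected in 2.5 μM milrinone, a drug that holds the oocyte in meiotic arrest. The labels call the 3 samples of a genotype biological replicates but do not say whether pools shared females, and p-values thus reflect only how far pools of one genotype differ. The deposited values are log2 intensities. Across genes the arrays correlated at 0.996 to 0.997 within the Ring1 mutant and within the control, and at 0.995 to 0.996 between them. The median spread (SD) of a gene was 0.10 log2 in the Ring1 mutant and 0.09 in the control. The 95th percentile of 1044 olfactory receptor genes, 3.82 log2, is called the floor below, and 12379 of 21082 genes had a mean above it. In pools, fewer oocytes with a transcript and less transcript per oocyte cannot be told apart.

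The probe set for Ring1 does not check the genotype. It read 3.88, 3.63 and 3.86 log2 in the Ring1 mutants and 3.85, 3.87 and 3.80 in the controls, values that overlap and lie at the floor (difference -0.05 ± 0.11, SE). The position of its probes was not used here, so they may lie outside the deletion. Rnf2 was well detected, at 8.43, 8.53 and 8.43 log2 in the Ring1 mutants and 8.33, 8.44 and 8.23 in the controls. Its difference of 0.13 ± 0.11 did not pass the test. Markers placed all 6 pools as oocytes: the 12 oocyte markers averaged 10.84 to 10.88 log2 in the Ring1 mutants and 10.84 to 10.89 in the controls, and none of them was called.

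Few transcripts passed the test in oocytes that lacked Ring1 alone. Of 21082 genes 163 were called (0.773%) by limma at an adjusted p below 0.05, with 62 higher in the Ring1 mutant (0.294%) and 101 lower (0.479%). An unadjusted p below 0.05 was met by 2240 genes (10.6%). The calls were mostly small. The median rise was 0.61 log2 and the median fall -0.51, 68 of the 163 lay below 0.5 log2 in size and 75 between 0.5 and 1, and 20 (0.0949%) reached 2-fold, 8 of them higher (0.0379%) and 12 lower (0.0569%). In each of the 163 genes the 3 mutant arrays lay wholly on one side of the 3 control arrays, a pattern that 3500 of all genes (16.6%) showed. The median difference over all genes was near 0 (-0.0049). The number of calls depended on single pools: it was 70, 81 and 117 without Ring1 mutant replicates 1, 2 and 3, and 88, 93 and 67 without control replicates 1, 2 and 3. With only these 6 arrays in the fit 45 genes were called, 38 of them among the 163.

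**Figure D1:**
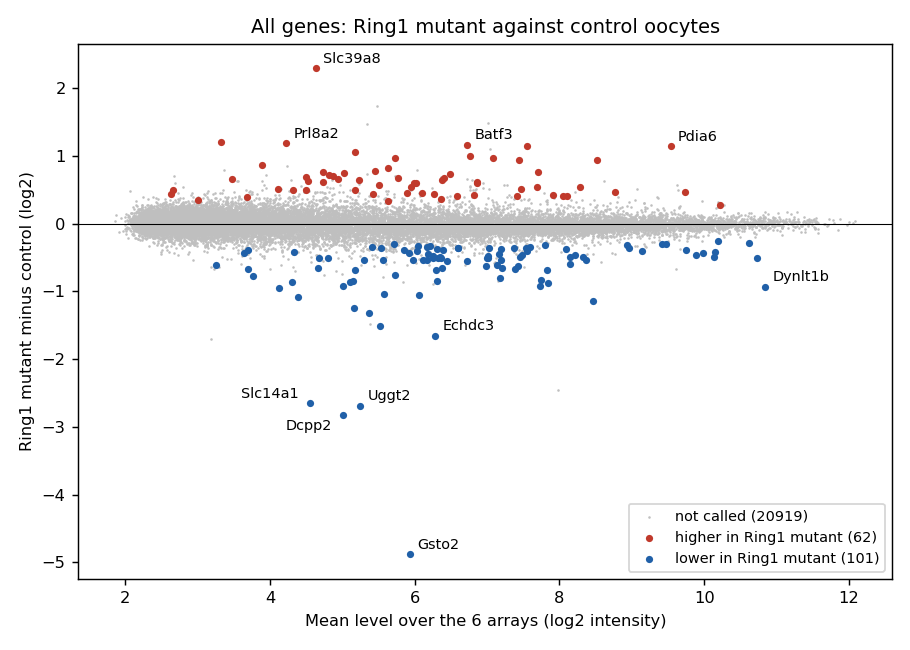
Each point is a gene, with its mean log2 intensity over the 6 arrays on the horizontal axis and the Ring1 mutant minus control difference in log2 on the vertical axis. The 62 called rises are red, the 101 called falls blue and all other genes grey. Gsto2, Dcpp2, Uggt2 and Slc14a1 lie below -2 and Slc39a8 lies above 2, while most called genes lie between -1 and 1.

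Of the 101 falls, 1 (Cyp7a1) had a control mean below the floor, and 9 had a mutant mean below it. Of the 62 rises, 9 (14.5%) had a control mean below the floor, against 8835 of all genes (41.9%), so most rises were in genes already measured in control oocytes. Another 7 genes differed by at least 2-fold without passing the test. Among them, named after their values were seen, Cdc5l, a splicing factor, read 6.35, 6.72 and 7.21 log2 in the Ring1 mutants and 6.89, 10.00 and 10.75 in the controls, so that 1 control array lay among the mutants (limma, adjusted p = 0.22).

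The deepest fall was in Gsto2, an omega-class glutathione transferase that also reduces dehydroascorbate. It read 3.90, 3.36 and 3.22 log2 in the Ring1 mutants and 8.37, 8.36 and 8.40 in the controls. A well-expressed transcript was thus at the floor in each mutant pool, at 29.6-fold less signal (-4.89 ± 0.23 log2; limma, adjusted p = 1.5e-06). No other gene of the list of 36 glutathione transferases and peroxidases was called, beside 0.773% of all genes, and the list's median was -0.08. Of its members 8 had all mutant arrays below all control arrays and 1 had them all above, patterns shown by 9.37% and 7.23% of all genes. Gsto1, also of the omega class, was among the 8, at -0.65 ± 0.18 (limma, adjusted p = 0.16) with both group means below the floor. That list, and those of mitochondrial enzymes, of folding in the endoplasmic reticulum and of zinc transport, were drawn up with the changes of their leading genes known, so their counts are a description only. The 250 bases upstream of the annotated Gsto2 start are shown because this is the clearest change. They are taken from RefSeq (GRCm38.p6, plus strand, chr19:47865295-47865544), with its 16 CG dinucleotides in capitals.

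Gsto2: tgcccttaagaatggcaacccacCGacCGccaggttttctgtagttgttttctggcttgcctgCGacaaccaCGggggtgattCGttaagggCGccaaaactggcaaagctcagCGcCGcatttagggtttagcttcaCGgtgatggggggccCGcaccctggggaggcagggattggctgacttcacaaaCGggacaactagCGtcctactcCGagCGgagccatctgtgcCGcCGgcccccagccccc

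Mitochondrial enzymes gave a pair of the other large falls. Echdc3, a mitochondrial protein of the enoyl-CoA hydratase family, read 5.24, 5.46 and 5.67 log2 in the Ring1 mutants and 7.15, 7.05 and 7.12 in the controls (-1.65 ± 0.11; limma, adjusted p = 1.3e-05). Dhtkd1, a subunit of the 2-oxoadipate dehydrogenase complex of lysine breakdown, read 4.72, 4.58 and 5.02 in the Ring1 mutants and 6.30, 6.28 and 6.25 in the controls (-1.51 ± 0.15; limma, adjusted p = 0.00041). In neither gene did the groups overlap. These were the 2 called members of a list of 29 mitochondrial lysine, 2-oxoacid and fatty acid enzymes, whose median was -0.10, where 0.773% of all genes were called. In that list 9 members had all mutant arrays below all control arrays and 1 had them all above, patterns shown by 9.37% and 7.23% of all genes.

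Cyp39a1, an oxysterol hydroxylase, read 5.44, 5.47 and 5.66 log2 in the Ring1 mutants and 6.45, 6.63 and 6.66 in the controls (-1.05 ± 0.09; limma, adjusted p = 0.00016). Far2, a fatty acyl-CoA reductase, fell by 0.96 ± 0.15 to a mean of 3.65 in the Ring1 mutants, below the floor, against 4.60 in the controls (limma, adjusted p = 0.012). That call was lost without control replicate 3. Scd3, a stearoyl-CoA desaturase, moved the other way, with 5.50, 5.75 and 5.86 log2 in the Ring1 mutants and 4.86, 4.78 and 4.28 in the controls (1.06 ± 0.15; limma, adjusted p = 0.0071).

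The handling of glycoproteins in the endoplasmic reticulum gave 3 calls of 42 measured genes, in both directions, beside 0.773% called of all genes, with a list median of -0.01. Uggt2, a paralogue of the glucosyltransferase that senses misfolded glycoproteins, read 3.92, 3.64 and 4.16 log2 in the Ring1 mutants and 6.94, 6.59 and 6.25 in the controls. It fell by 2.69 ± 0.25, to near the floor (limma, adjusted p = 0.00036), while Uggt1, the main folding sensor, differed by -0.18 ± 0.07 and was not called (limma, adjusted p = 0.42). Pdia6, a protein disulfide isomerase, read 10.05, 10.08 and 10.20 in the Ring1 mutants and 9.15, 9.06 and 8.68 in the controls (1.15 ± 0.12; limma, adjusted p = 0.0011). Hspa5, the abundant chaperone BiP, differed by 0.08 ± 0.06 and was not called. Dnajc3, a co-chaperone of BiP, was called at 0.27 ± 0.05, and lost its call under 9 of 17 alternatives.

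Secreted proteins, named from their families, included the 3 Dcpp genes, which encode demilune cell and parotid proteins known from salivary glands. Dcpp2 read 3.88, 3.66 and 3.26 log2 in the Ring1 mutants and 6.04, 6.63 and 6.60 in the controls (-2.83 ± 0.31; limma, adjusted p = 0.0014). Dcpp3 fell by 1.24 ± 0.19 and Dcpp1 by 1.09 ± 0.17 (limma, adjusted p = 0.011 and 0.013). All 3 probe sets were lower in each mutant array than in any control array. The genes lie side by side on chromosome 17 and share a family, so signal may be shared between their probe sets and they are not independent measurements. The call of Dcpp1 was lost without Ring1 mutant replicate 1 and without control replicates 1 and 3. The transcripts that the probes read were not aligned. The upstream sequences of the 3 genes are shown because they are alike, with the bases that differ between copies in capitals. They are identical at 96.7% (Dcpp2 with Dcpp1), 97.2% (Dcpp2 with Dcpp3) and 97.6% (Dcpp1 with Dcpp3) of aligned bases, and each holds 1 TATAA. The windows are the 250 bases before the annotated starts in RefSeq (GRCm38.p6, plus strand), chr17:23898472-23898721 for Dcpp2, chr17:23880626-23880875 for Dcpp1 and chr17:23917208-23917457 for Dcpp3.

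Dcpp2: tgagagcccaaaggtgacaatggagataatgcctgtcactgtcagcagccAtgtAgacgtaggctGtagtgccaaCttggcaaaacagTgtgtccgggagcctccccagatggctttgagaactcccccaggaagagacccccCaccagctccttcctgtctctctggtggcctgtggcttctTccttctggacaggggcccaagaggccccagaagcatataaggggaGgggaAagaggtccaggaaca
Dcpp1: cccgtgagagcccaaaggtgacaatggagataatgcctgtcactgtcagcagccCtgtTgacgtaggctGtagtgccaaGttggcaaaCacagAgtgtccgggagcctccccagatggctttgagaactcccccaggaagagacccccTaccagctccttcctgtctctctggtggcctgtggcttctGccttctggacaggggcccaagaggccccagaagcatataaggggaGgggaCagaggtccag
Dcpp3: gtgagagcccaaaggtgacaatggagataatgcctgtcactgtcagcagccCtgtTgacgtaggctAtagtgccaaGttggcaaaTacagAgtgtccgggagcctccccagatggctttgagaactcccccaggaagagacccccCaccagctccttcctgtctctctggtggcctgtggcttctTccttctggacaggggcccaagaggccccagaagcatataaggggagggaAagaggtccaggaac

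Another secreted protein, Cpn1, the catalytic subunit of carboxypeptidase N, read 4.44, 5.00 and 4.66 log2 in the Ring1 mutants and 6.01, 5.95 and 6.10 in the controls (-1.32 ± 0.12; limma, adjusted p = 0.00034). The alpha-defensin genes Defa29 and Defa39, antimicrobial peptides of the gut, were called higher at 0.94 ± 0.15 and 0.83 ± 0.17 (limma, adjusted p = 0.015 and 0.0495). Defensin genes form a family of close copies, the other probe set of Defa29 differed by 0.09, and the call of Defa39 was lost under 10 of 17 alternatives, so these rises are uncertain.

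Slc14a1, a urea transporter, read 3.30, 3.15 and 3.22 log2 in the Ring1 mutants, below the floor, and 7.05, 6.53 and 4.04 in the controls. The controls differed among themselves by more than 3 log2, so the fall of 2.65 ± 0.54 (limma, adjusted p = 0.0498) rests on unequal pools, and the call was lost without any 1 of 5 arrays, control replicate 3 being the one whose removal kept it. Kcnk18, the potassium channel TRESK, rose by 1.14 ± 0.19 (limma, adjusted p = 0.019), with a call that was lost without Ring1 mutant replicates 2 or 3.

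The largest rise of all was in Slc39a8, a transporter that brings zinc and manganese into cells. It read 5.57, 5.66 and 6.10 log2 in the Ring1 mutants and 3.42, 3.44 and 3.59 in the controls. The gene was below the floor in every control pool and above it in every mutant pool, at 4.91 times the signal (2.30 ± 0.30 log2; limma, adjusted p = 0.0045). It was the only called gene among 29 zinc transporters and metallothioneins, whose median was 0.01, beside 0.773% called of all genes.

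Dynlt1b, a Tctex-type light chain of the dynein motor, was among the most abundant transcripts that changed. It read 10.34, 10.43 and 10.36 log2 in the Ring1 mutants and 11.27, 11.32 and 11.34 in the controls (-0.93 ± 0.06; limma, adjusted p = 1.2e-05). Spreads within both groups were at most 0.05, so this fall to 0.524 of the control signal was one of the most precisely measured. Septin11, a filament-forming GTPase, fell by 1.15 ± 0.19 (limma, adjusted p = 0.018). Its mutant pools read 7.48, 7.70 and 8.49, more unequal than the controls at 8.96, 9.01 and 9.14, and the call was lost under 6 of 17 alternatives. Cttnbp2, a cortactin-binding protein, fell by 1.04 ± 0.15 (limma, adjusted p = 0.0071).

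Batf3, a bZIP transcription factor known for its part in dendritic cell development, was among the largest rises. It read 7.36, 7.37 and 7.20 log2 in the Ring1 mutants and 6.10, 6.16 and 6.17 in the controls. It rose by 1.17 ± 0.10 (limma, adjusted p = 0.00018) and kept its call under all 17 alternatives. Its upstream window is shown because CACGTG, the E-box bound in other mouse cells by the MAX and MGA subunits of a variant PRC1, occurs in it once, in capitals (RefSeq, GRCm38.p6, plus strand, chr1:191098164-191098413). The match is a description of the letters and not a site of binding.

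Batf3: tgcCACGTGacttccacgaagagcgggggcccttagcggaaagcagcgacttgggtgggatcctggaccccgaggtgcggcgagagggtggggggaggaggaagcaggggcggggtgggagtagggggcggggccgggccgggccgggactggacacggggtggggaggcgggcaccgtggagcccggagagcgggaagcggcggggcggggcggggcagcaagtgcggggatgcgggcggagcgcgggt

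Over the promoters of the called genes the shares of 3 short motifs were counted on both strands, as a description. In windows of 300 bases around the start, available for 41 of the 62 rises, 74 of the 101 falls and 15250 of all genes, CACGTG occurred in 9.76% of the rises, 12.2% of the falls and 8.4% of all genes, and above the floor in 10.8%, 12.5% and 10.3%. GCGGGA, a core of the E2F motif, occurred in 34.1% of the rises, 32.4% of the falls and 27.7% of all genes, and above the floor in 35.1%, 33.3% and 35.4%. TATAA, as in a TATA box, occurred in 7.32% of the rises, 12.2% of the falls and 21.1% of all genes, and above the floor in 5.41%, 12.5% and 13.7%. The ratio of observed to expected CpG had a median of 0.646 in the rises and 0.683 in the falls, against 0.626 in all genes. Among genes above the floor the median ratio was 0.760 over all genes, higher than in either called group there (0.646 and 0.683).

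Among genes known from the placenta or the early embryo only Prl8a2 and Dppa4 were called in their lists, where 0.773% of all genes were called. Prl8a2, a prolactin-family hormone of the placenta and decidua, read 4.81, 4.81 and 4.83 log2 in the Ring1 mutants and 3.68, 3.62 and 3.58 in the controls (1.19 ± 0.07; limma, adjusted p = 1.2e-05). It was the single call of 36 trophoblast and placental genes, 6 of which were above the floor, and the list's median was -0.02. Dppa4, a chromatin protein of pluripotent cells and early embryos, read 6.77, 6.77 and 6.53 in the Ring1 mutants and 6.03, 6.15 and 5.96 in the controls (0.64 ± 0.08; limma, adjusted p = 0.0036), while its dimmer probe set differed by 0.14. It was the single call of 26 pluripotency genes, whose median was 0.01.

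Prl8a2, Dppa4 and Pdia6 were also higher in the Rnf2 mutant than in the control, a comparison that uses the same control arrays and called 20 genes higher (0.0949%). In Prl8a2 the difference was 1.19 ± 0.07 log2 in the Ring1 mutant and 1.04 ± 0.07 in the Rnf2 mutant. In Dppa4 it was 0.64 ± 0.08 and 0.67 ± 0.08, and in Pdia6 1.15 ± 0.12 and 0.81 ± 0.12, in the same order. Each passed the test in both mutants, and since the controls are shared these values stand side by side only.

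**Figure D2:**
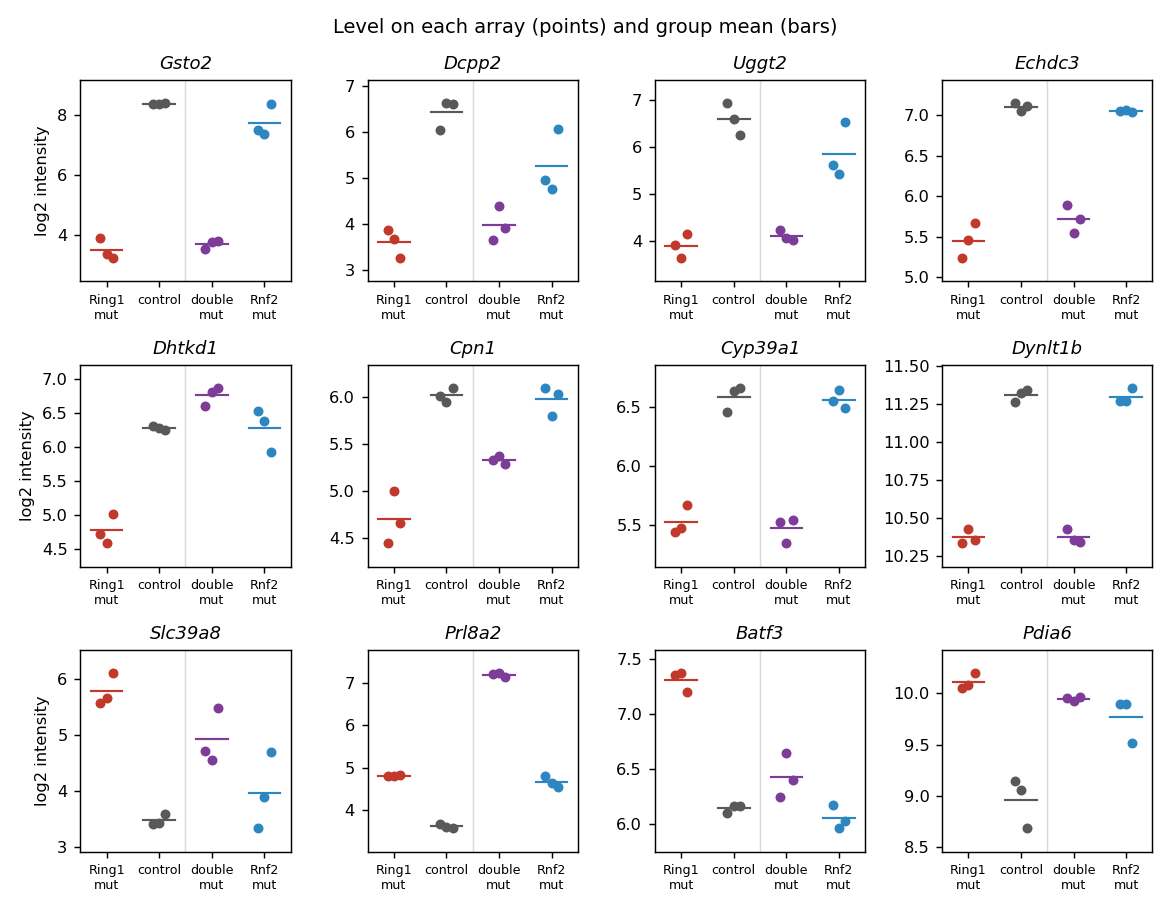
Log2 intensity on each array (points) and group means (bars) for 12 of the named genes, with the Ring1 mutant left of the control and the double mutant left of the Rnf2 mutant. The 3 Ring1 mutant arrays lie apart from the 3 controls in every panel, while Dhtkd1, Batf3 and Pdia6 show a smaller or opposite step between double mutant and Rnf2 mutant.

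Of the gene groups that PRC1 is best known for, hardly any member was called. None of 38 Hox genes was called, their differences lay between -0.31 and 0.29 with a median of 0.01, and 10 of them were above the floor. Of 133 other developmental transcription factors only Prrx1, a homeobox gene of the limb mesenchyme, was called, and it was lower: 4.37, 4.58 and 4.33 log2 in the Ring1 mutants and 4.95, 4.97 and 4.87 in the controls (-0.50 ± 0.08; limma, adjusted p = 0.010). No call was made among 45 germline genes that a variant PRC1 represses in other cells (differences -0.21 to 0.46) or among 50 imprinted genes (-0.42 to 0.27). In each of these lists the share of called genes was at or near the background of 0.773%.

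Genes for the Polycomb machinery itself were called no more often than other genes, of which 0.773% were called and 10.6% met an unadjusted p below 0.05. Of 38 PRC1 subunit genes, 37 above the floor, 0 were called and 4 met an unadjusted p below 0.05 (differences -0.22 to 0.39, median 0.02). Of 22 genes of PRC2 and of H2A deubiquitination 0 were called (-0.22 to 0.26), with 2 at an unadjusted p below 0.05. The 36 DNA and histone methylation enzymes gave 0 calls (-0.21 to 0.17), also with 2 at an unadjusted p below 0.05, and Dnmt1, the brightest of them, differed by 0.03 ± 0.05.

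Genes on which the oocyte depends were likewise not called. The 55 oocyte-specific and maternal-effect genes, all above the floor, ranged from -0.36 to 0.40, with Gdf9, an oocyte growth factor, at -0.01 ± 0.06. The 44 genes of meiotic arrest and the spindle ranged from -0.20 to 0.22. Among 43 genes for storing or degrading maternal mRNA, 12 had all mutant arrays below all control arrays and 6 had them all above, where 9.37% and 7.23% of all genes did, with a median of -0.03. None of these was called by limma, beside 0.773% of all genes, and an unadjusted p below 0.05 was met by 7, 3 and 3 members of the lists, in that order, beside 10.6% of all genes. Nor was any of 30 p53 targets and apoptosis genes, 17 cell cycle inhibitors and D cyclins, 22 histone genes or 36 interferon-stimulated genes called, with 1, 5, 4 and 3 members at an unadjusted p below 0.05. When arrays were centred on their most abundant 25% of genes, 2 interferon-stimulated genes were called.

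Markers of cells that could cling to an oocyte were measured as well. The 33 granulosa and cumulus markers, 19 of them above the floor, averaged 4.55 to 4.85 log2 in the Ring1 mutants and 4.70 to 4.98 in the controls. None was called, while 6 were lower and 2 higher in all mutant arrays, beside 9.37% and 7.23% of all genes. Serpine2, a protease inhibitor, was bright in both groups, at 9.01 ± 0.02 in the Ring1 mutants and 9.06 ± 0.03 in the controls (SD, n = 3). Cyp11a1, the enzyme that starts steroid synthesis, varied widely between pools, at 5.41 ± 0.82 in the Ring1 mutants and 6.26 ± 1.03 in the controls, and Star, which carries cholesterol into mitochondria, at 4.42 ± 0.67 and 4.88 ± 1.09 in the same order. The 21 blood and immune markers averaged 3.57 to 3.66 in the Ring1 mutants and 3.54 to 3.57 in the controls. The 20 stromal, theca and endothelial markers averaged 4.14 to 4.22 in the Ring1 mutants and 4.17 to 4.21 in the controls. No gene of either list was called, with 3 in each at an unadjusted p below 0.05, against 5 of the granulosa markers and 10.6% of all genes. The 9 measured Y-linked genes averaged 2.65 to 2.75 in the Ring1 mutants and 2.59 to 2.69 in the controls, with 0 called and 0 at an unadjusted p below 0.05. What part these cells have in the other results was not tested.

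**Figure D3:**
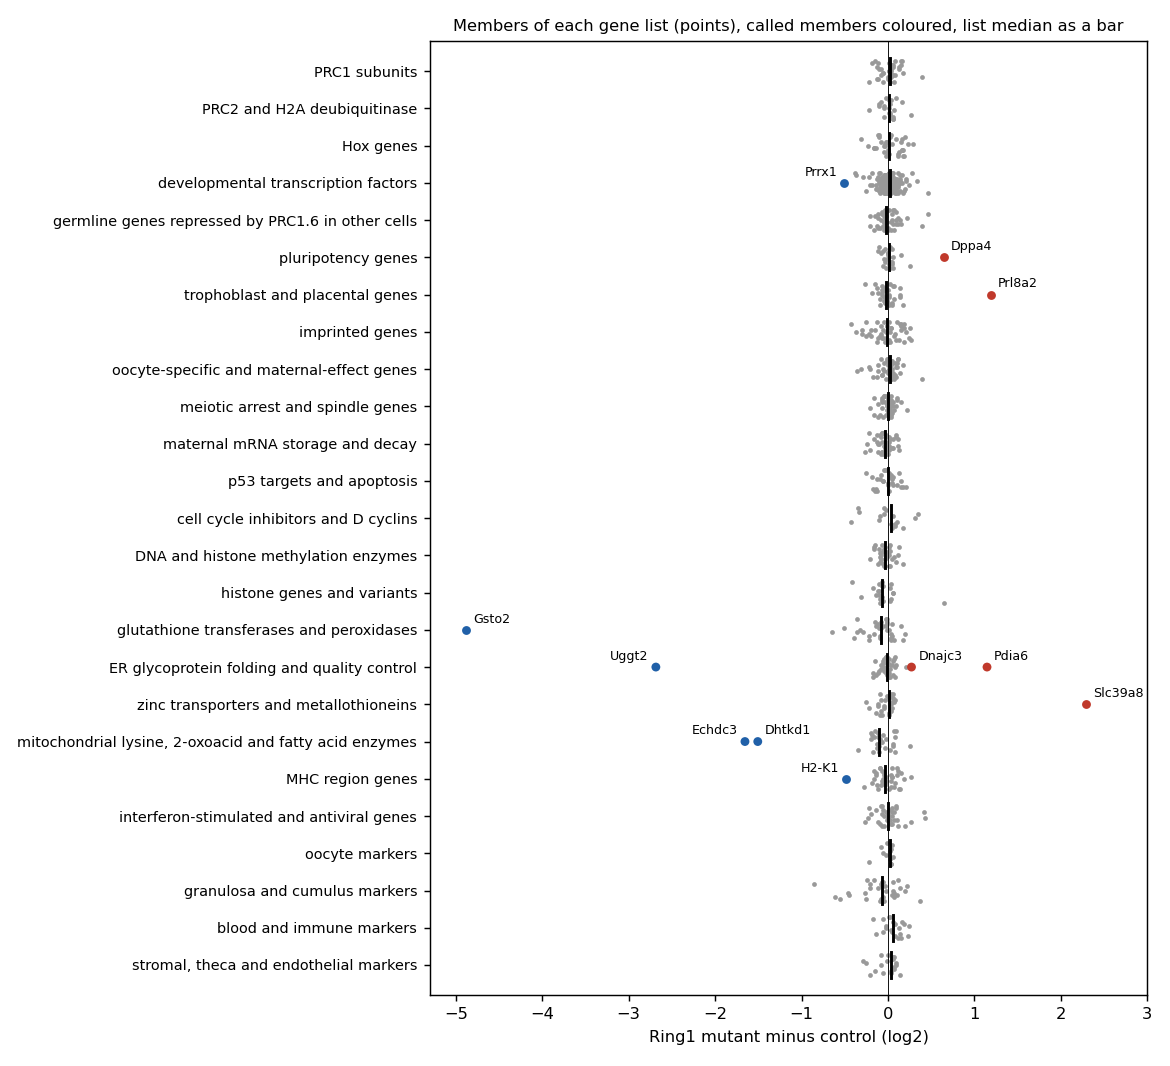
Ring1 mutant minus control differences in log2 for every measured member of 25 gene lists (points), with called members in red where higher and blue where lower and the list median as a black bar. All list medians lie close to 0, and 11 called genes, led by Gsto2 and Uggt2 on the lower side and Slc39a8 on the upper, lie apart from their lists.

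The called genes were not spread evenly over the genome. Of the 19642 genes placed on a chromosome, 156 were called (0.794%). The share was 2.61% on chromosome 12 (16 of 612 genes), 2.2% on chromosome 17 (21 of 953), 2.18% on chromosome 18 (10 of 459) and 2.01% on chromosome 19 (14 of 695), and at most 0.994% on each of the others. Called genes also lay near each other: 67 of the 156 (42.9%) had another called gene within 10 tested genes in chromosome order, as did 11.5% of all placed genes. Within 5 tested genes the shares were 32.1% and 6.53%, and within 20 they were 59.6% and 19.8%. Those 67 genes formed 21 runs, with 46 falls and 21 rises. Genes next to each other can share regulation and probe signal, so the members of a run are not independent, and no test was made of this pattern.

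Ring1 itself lies on chromosome 17, but the calls on that chromosome were not concentrated around it. Within 100 tested genes on either side, 3 of 200 were called (1.5%), and farther away 18 of 752 (2.39%), beside 0.794% of all placed genes. Those 18 lay mostly on one side: all but Trim39 and Cyp39a1 come before Ring1 in chromosome order. Whether this is tied to the position of Ring1 was not tested. The 3 near Ring1 were Pnpla1, a phospholipase-family gene of the skin (0.63 ± 0.08 log2), H2-K1 (-0.48 ± 0.08) and Mucl3, a mucin-like gene (0.69 ± 0.14). H2-K1, a classical MHC class I heavy chain, is the tested gene next to Ring1. It read 6.76, 6.95 and 6.60 in the Ring1 mutants and 7.18, 7.22 and 7.34 in the controls (limma, adjusted p = 0.023), and its call was lost under 6 of 16 alternatives, 5 of them the removal of 1 array. It was the single call among 40 genes of the MHC region (median -0.03), beside 0.773% called of all genes.

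The longest run was on chromosome 12, with 9 called genes among 38 consecutive tested genes, 5 higher and 4 lower. Pdia6 opens it, followed by Gm5784 (0.97 ± 0.14 log2) and Iah1, an esterase, which read 7.27, 7.22 and 7.32 in the Ring1 mutants and 8.11, 8.22 and 8.25 in the controls (-0.92 ± 0.09; limma, adjusted p = 0.00041). After 6030426L16Rik, 2.01-fold higher with its dimmer probe set at 0.12 log2, come Mboat2, a lysophospholipid acyltransferase (-0.50 ± 0.09), Kidins220, a scaffold of neurotrophin receptors (0.54 ± 0.08), and Cmpk2, a mitochondrial nucleotide kinase (0.73 ± 0.11). Rnaseh1, which cuts RNA in RNA-DNA hybrids (-0.41 ± 0.07), and Eipr1, a vesicle-traffic protein (-0.66 ± 0.08), close it. Neighbours in this stretch thus moved in opposite directions.

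Near the start of chromosome 17, 7 of 23 consecutive tested genes were called, 6 lower and 1 higher. Dynlt1b is the first. Pde10a, a cyclic nucleotide phosphodiesterase, read 5.84, 5.83 and 5.98 log2 in the Ring1 mutants and 6.73, 6.68 and 6.75 in the controls (-0.84 ± 0.08; limma, adjusted p = 0.00034). Sytl3, a synaptotagmin-like protein of vesicle traffic (-0.78 ± 0.10), Mpc1, a subunit of the mitochondrial pyruvate carrier (-0.59 ± 0.10), and Gm1604b (-0.68 ± 0.10) were lower as well, and 1700010I14Rik (0.67 ± 0.12) was higher. The mean of Sytl3 in the Ring1 mutants, 3.37 log2, was below the floor. Farther along the chromosome lie the 3 Dcpp genes and then Syngr3, a synaptic vesicle protein (-0.62 ± 0.07), Noxo1, an organizer of NADPH oxidase (-0.38 ± 0.07), and Tbl3, of ribosomal RNA processing (-0.46 ± 0.06), within 4 consecutive tested genes.

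Chromosome 19 held 3 runs. One of 6 genes within 20 had R3hcc1l (0.42 ± 0.06), Erlin1, a membrane protein of the endoplasmic reticulum (0.41 ± 0.08), and Scd3 higher, and Got1, the cytosolic aspartate aminotransferase (-0.51 ± 0.09), Cpn1 and Cwf19l1 (-0.50 ± 0.09) lower. Cfap58, a protein of cilia and flagella, lies close to Gsto2 and fell by 0.67 ± 0.09, to a mutant mean of 3.36 log2, below the floor. At the far end Sfxn4, a mitochondrial sideroflexin, read 4.73, 4.66 and 4.80 log2 in the Ring1 mutants and 5.61, 5.53 and 5.58 in the controls (-0.84 ± 0.07; limma, adjusted p = 0.00023), and the adjacent Prdx3, the mitochondrial peroxiredoxin, fell by 0.80 ± 0.08 (limma, adjusted p = 0.00049).

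Near the start of chromosome 2, 5 of 17 consecutive tested genes were all lower: Dhtkd1 and Echdc3, with Mcm10, a factor of DNA replication (-0.32 ± 0.06), Upf2, of nonsense-mediated mRNA decay (-0.36 ± 0.07), and Kin, a DNA- and RNA-binding protein (-0.55 ± 0.09), at smaller sizes. The call of Upf2 was lost under 10 of 17 alternatives, among them the removal of any 1 of the 6 arrays, and that of Mcm10 under 8 of 17. On chromosome 14 Uggt2 and Dnajc3 are adjacent and moved in opposite directions. The remaining runs held 2 or 3 genes each. They included the adjacent rises of Fancl and Vrk2 on chromosome 11, whose calls were lost under 8 and 9 of 17 alternatives, and the falls of Cyp7a1, the rate-limiting enzyme of bile acid synthesis, and Car8 on chromosome 4. Cyp7a1 was below the floor in both groups, with means of 2.95 log2 in the Ring1 mutants and 3.56 in the controls.

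**Figure D4:**
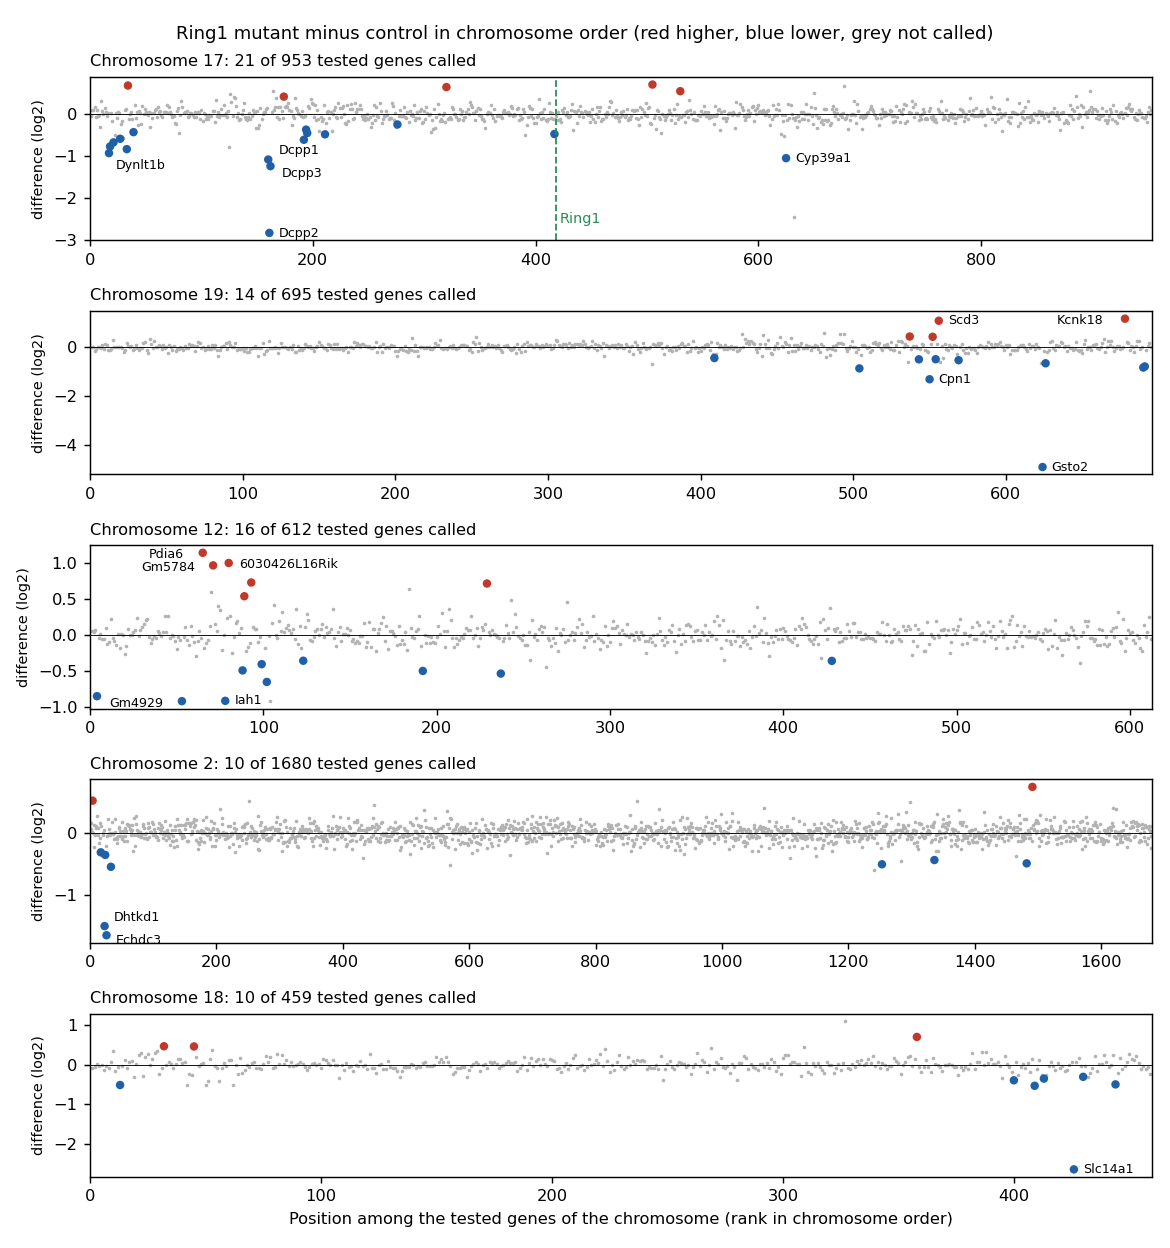
Ring1 mutant minus control differences in log2 for all tested genes of chromosomes 17, 19, 12, 2 and 18, placed by their rank in chromosome order, with called rises red, called falls blue and other genes grey. Called genes gather in stretches, such as 9 within 38 genes on chromosome 12 and 7 within 23 on chromosome 17, and not around the dashed line that marks Ring1.

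The same null alleles could be read a second time, in oocytes that had also lost Rnf2, from 6 arrays that share none with the comparison above, although all 12 arrays gave 1 estimate of each gene's spread. In the double mutant against the Rnf2 mutant 6300 of 21082 genes were called (29.9%), 2888 higher (13.7%) and 3412 lower (16.2%), so the background there is high. Of the 163 genes, 82 (50.3%) were called there in the same direction, 31 (19%) in the opposite direction and 50 were not called. By direction, 28 of the 62 rises were called higher again and 7 lower, and 54 of the 101 falls were called lower again and 24 higher. Of the 20 genes changed at least 2-fold, 13 were called in the same direction and 2 in the opposite one. Among genes in runs 37 of 67 (55.2%) were called in the same direction, and among the rest 45 of 96 (46.9%), a difference that was not tested.

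Some changes had almost the same size with and without Rnf2. Dynlt1b read 10.43, 10.36 and 10.34 log2 in the double mutants and 11.27, 11.27 and 11.35 in the Rnf2 mutants, a step of -0.92 ± 0.06 beside -0.93 ± 0.06 against control. Cyp39a1 stepped by -1.09 ± 0.09 beside -1.05 ± 0.09, Sfxn4 by -0.80 ± 0.07 beside -0.84 ± 0.07 and Syngr3 by -0.60 ± 0.07 beside -0.62 ± 0.07. Gsto2 was again at the floor, with 3.52, 3.75 and 3.79 in the double mutants and 7.49, 7.36 and 8.38 in the Rnf2 mutants (-4.05 ± 0.23; limma, adjusted p = 7.1e-08). Echdc3 stepped by -1.33 ± 0.11 beside -1.65 ± 0.11 against control, and Uggt2 by -1.75 ± 0.25 beside -2.69 ± 0.25. Septin11 stepped by -1.49 ± 0.19 beside -1.15 ± 0.19. The steps of these genes and of Gsto2, at -4.89 ± 0.23 against control, shared a direction but were less alike in size. The difference between the steps was not called for any of them.

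For other genes the step differed between the backgrounds. The difference of the 2 steps (the interaction) was called for 87 of the 163 genes, against 3950 of all genes (18.7%). It contains the contrast by which the 163 were selected, so it is read only as a description. Prl8a2 stepped up in both backgrounds, but the control arrays lay below the floor, where a step is compressed, so the sizes are not ranked. It read 7.20, 7.23 and 7.14 log2 in the double mutants and 4.82, 4.64 and 4.55 in the Rnf2 mutants (2.52 ± 0.07; limma, adjusted p = 4.1e-10). Nudt4, which hydrolyses diphosphoinositol polyphosphates, stepped up by 0.97 ± 0.15 with Rnf2 and by 1.86 ± 0.15 without it.

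Other genes stepped in opposite directions. Prrx1, slightly lower in the Ring1 mutant, read 7.48, 7.32 and 7.42 log2 in the double mutants and 4.80, 4.83 and 4.90 in the Rnf2 mutants (2.56 ± 0.08; limma, adjusted p = 4.2e-10). Far2 stepped by 1.53 ± 0.15 without Rnf2 and by -0.96 ± 0.15 with it, Cttnbp2 by 1.13 ± 0.15 and -1.04 ± 0.15, and H2-K1 by 1.06 ± 0.08 and -0.48 ± 0.08. Marcksl1, a MARCKS-family protein at the membrane, named after its values were seen, stepped by 2.06 ± 0.09 without Rnf2 and by -0.42 ± 0.09 with it. These genes fell where only Ring1 was lost and were higher where its loss was added to that of Rnf2.

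A last group changed only slightly or without a call in the second background. Pdia6 was as high in the Rnf2 mutants, at 9.90, 9.89 and 9.52 log2, as in the double mutants, at 9.95, 9.93 and 9.96, and the step of 0.18 ± 0.12 was not called (limma, adjusted p = 0.33). Batf3 stepped by 0.38 ± 0.10 (limma, adjusted p = 0.011), with 6.25, 6.65 and 6.40 in the double mutants and 6.18, 5.96 and 6.03 in the Rnf2 mutants, so the level of the Ring1 mutants was not reached. Slc14a1 was below the floor in both, at 3.20 to 3.59 in the double mutants and 3.11 to 3.25 in the Rnf2 mutants. Its signal was above the floor only in the control pools.

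**Figure D5:**
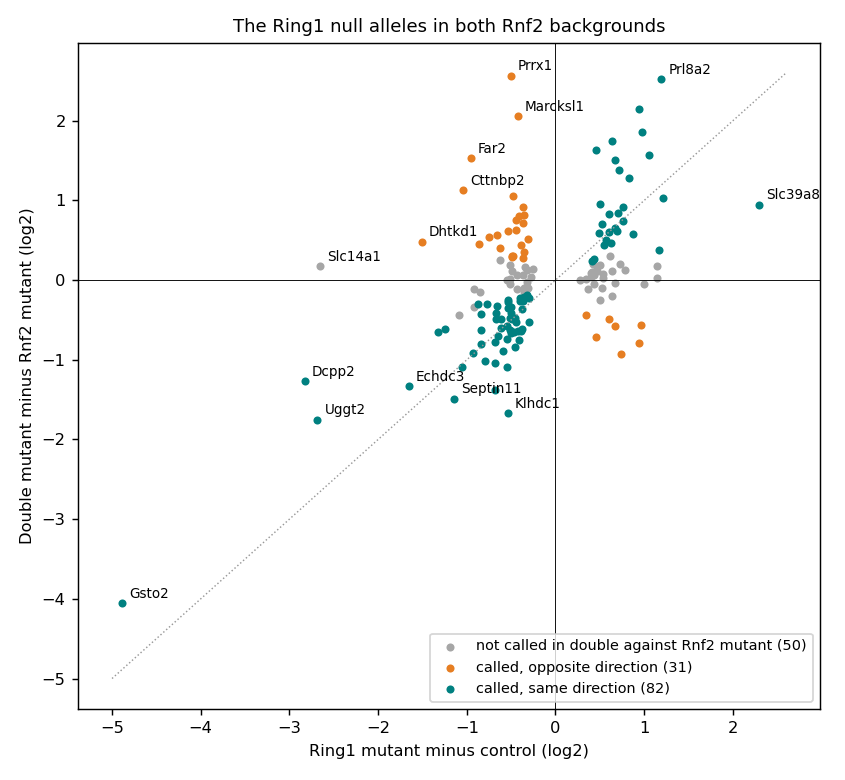
For the 163 called genes, the Ring1 mutant minus control difference (horizontal, log2) is set against the double mutant minus Rnf2 mutant difference (vertical, log2), with equality dotted. The 82 genes called in the same direction are green, the 31 called in the opposite direction orange and the 50 not called grey. Prrx1, Marcksl1, Far2 and Cttnbp2 lie to the upper left, and Gsto2 and Uggt2 to the lower left.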

How the data were processed

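Whole-transcript arrays were hybridised with amplified cDNA from oocyte pools. The deposited values are log2 intensities, 1 per probe set and array, with similar array medians (3.82 to 3.88 over the 6 arrays). The affy package and R 2.10.0 are listed in the submitters' processing notes, and how probes were summarized is not given there. The authors' annotation paired 22812 of 34760 probe sets with 1 gene, 1800 with several and 10117 with none, and left out 31. Names were updated through a GRCm38.p6 gene table (matching 19536 gene numbers, 167 accessions, 907 symbols and 652 older symbols, with 1550 names kept), which also gave chromosome order for 19642 of 21082 genes. The build of the array is not given, so that table's gene coordinates are not printed. The brightest probe set stood for the 1018 genes with several. Precision is limited by having 3 arrays per group.

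In limma 3.58.1 (lmFit and eBayes, R 4.3.3), 1 mean per genotype was fitted to the 12 arrays together. P-values were Benjamini-Hochberg adjusted over all genes in each of 4 comparisons: Ring1 mutant minus control, double mutant minus Rnf2 mutant, their difference, and Rnf2 mutant minus control. Errors are the fit's standard errors (n = 3 per group) unless called SD. The fit was tested on simulated data. Named genes are Ring1 and Rnf2, the 15 largest called rises and falls, up to 4 called members of each of 26 lists or else the brightest, and members of runs, of which 1 is not reported here. Comparisons and lists were chosen with earlier results of these data known. Deviations of same-numbered mutant and control pools correlated weakly but positively (0.055, 0.113 and 0.064). Those of differently numbered pools correlated at -0.062 to -0.005, so a link between same-numbered pools is possible. The labels name no pairing and the main fit used none, while the replicate block was run as an alternative. Alternatives were other scalings, variance models, array weights, probe set choices, filters, thresholds, windows, the replicate block and leaving out each array.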

Additional observations from a re-analysis of the deposited data

Results flagged for a closer look

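By limma the interaction of the Ring1 and Rnf2 effects was called for 87 of the 163 genes, against 3950 of all 21082 genes (18.7%). It is the double mutant minus Rnf2 mutant step less the Ring1 mutant minus control step. The 163 genes were selected by the second of those steps, which the test contains, and no cause was tested. Among the 30 largest changes, the interaction was negative for EG668698 (-1.73 log2), Gm5784 (-1.53), Slc39a8 (-1.35), Kcnk18 (-1.11), 6030426L16Rik (-1.05), Pdia6 (-0.968), Batf3 (-0.79) and Zfyve16 (-0.653), all of which were higher in the Ring1 mutant. It was positive for the falls Cpn1 (0.671), Dcpp2 (1.56), Dhtkd1 (1.99), Cttnbp2 (2.17), Far2 (2.48) and Slc14a1 (2.83), and for the rises Nudt4 (0.886), Defa29 (1.2) and Prl8a2 (1.33). For Slc14a1 the value rests on control pools that differed among themselves, and Slc39a8 and Prl8a2 lay below the floor in the controls, where a difference is compressed.

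Probe sets left out of the gene comparison also carried differences. With every probe set tested, 10 of the 1800 that name several genes were called by limma, with differences between -3.30 and 1.17 log2. Of the 10117 that name no gene, 18 were called, between -1.19 and 1.45. Their targets were not analysed here.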

How the results depend on the processing

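The number of called genes was the least stable result. It was 288 (113 higher, 175 lower) with a variance trend and 45 (15 higher, 30 lower) with only the 6 arrays in the fit. It was 44 (15 higher, 29 lower) at an adjusted p below 0.01 and 20 (8 higher, 12 lower) with a 2-fold minimum. Leaving out single pools gave 67 to 117 genes, 25 to 40 higher and 38 to 78 lower. Near Ring1, 1 gene was called within 50 genes and 5 within 200. The replicate block, built on pool numbers that the labels do not explain, gave 132 genes (51 higher, 81 lower), 121 of them among the 163. The other settings stayed within 1.5 times the count, between 121 (every probe set tested) and 209 (genes above the floor only). Of 82 called named genes, 28 kept their call under every alternative run on them (16 or 17 each) and none reversed. Among the 30 largest changes 15 kept it under all, and 19 under all but the 6-array fit. Changes of genes near the floor are compressed.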
